A study of Mus musculus with 6 samples.

Results

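Mir155hg, the long non-coding transcript that carries the precursor of the microRNA miR-155, was examined beside 9 genes that make and use small RNAs, Drosha, Dgcr8, Xpo5, Dicer1, Tarbp2, Ago1, Ago2, Ago3 and Ago4. All 10 genes had a row among the 13226 genes of the count table and all 10 passed the filter on low counts. Mir155hg was chosen by its read counts in the comparison described here, so its values are given as a description without a test. The other 9 genes were listed by their role. RNA was measured in whole tibialis anterior (TA) muscles of male C57BL/6 mice aged 8 weeks, 7 days after injection of an AAV6 vector into the muscle. AAV6, derived from an adeno-associated virus, brings its cargo into muscle fibres. There were 3 muscles with AAV6:Yap-shRNA, which encodes a short hairpin RNA (shRNA) against Yap, and 3 control muscles. The labels say that control and treated muscles were paired in animals, but the main fit held no pairing term. Control muscles are titled as empty vector but carry AAV6:LacZ-shRNA in the vector field, so it cannot be told from the labels whether they also received a hairpin. The plasmid that received the Yap hairpin also encodes eGFP, and the labels do not give the bases around the hairpin. Uninjected muscle was not analysed here.

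A microRNA begins as a hairpin within a longer transcript. In the nucleus the Microprocessor, made of the ribonuclease Drosha and its RNA-binding partner Dgcr8, cuts the hairpin out, and Exportin-5 (Xpo5) carries it to the cytoplasm. There the ribonuclease Dicer (Dicer1), helped by Tarbp2, removes the loop, and an Argonaute protein (Ago1, Ago2, Ago3 or Ago4) keeps one strand as a guide to messenger RNAs with a matching sequence. Ago2 is the member that can cut a fully matched target. An shRNA made in the cell is built like a microRNA precursor and uses the same export, dicing and Argonaute steps. miR-155 is known as a microRNA of activated macrophages and lymphocytes and is also studied in muscle regeneration.

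Mir155hg (ENSMUSG00000097418) lies on the plus strand of chromosome 16 of GRCm38, at chr16:84703167-84715245, and is annotated as a lincRNA with 2 transcripts. Each transcript has 2 exons and they share exon 2, which begins at position 84714053 and holds 1193 bases. The miR-155 hairpin, 65 bases long, lies wholly within exon 2 at chr16:84714140-84714204. The libraries were made from polyadenylated RNA, so the reads do not measure the mature microRNA, and Mir155 itself was not among the genes tested. The counts are per gene and hold no read positions, so reads could not be assigned to an exon or to the hairpin. Since the bases around the Yap hairpin are not given, reads from the gene could not be told from any vector reads that match it. The precursor and its mature products are shown because they connect this gene to the messenger RNAs examined further on. In the hairpin (RefSeq, GRCm38.p6) the capitals mark the arms that become mature microRNAs, and in each mature sequence they mark the seed, bases 2 to 8, which pairs with targets.
Mir155 hairpin: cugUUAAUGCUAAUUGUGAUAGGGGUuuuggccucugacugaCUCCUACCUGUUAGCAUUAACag
mmu-miR-155-5p: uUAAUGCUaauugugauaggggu
mmu-miR-155-3p: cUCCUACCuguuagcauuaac

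**Figure D1:**
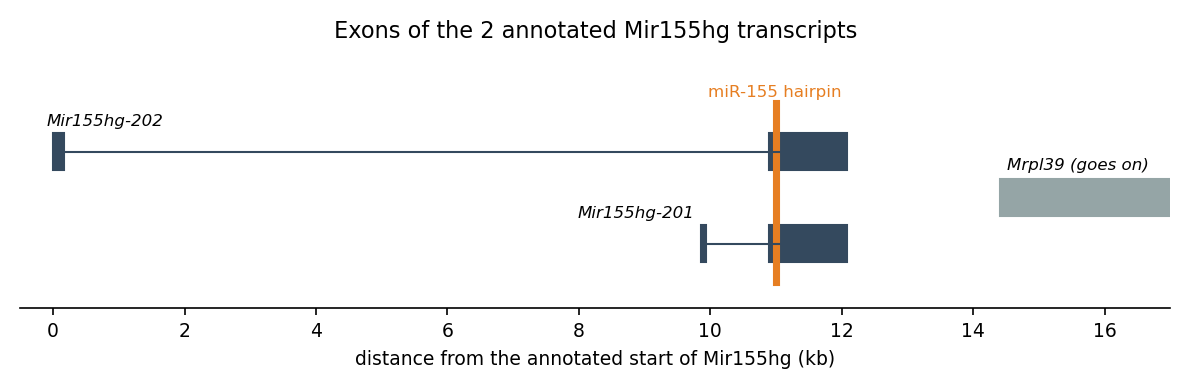
Exons (dark boxes) and introns (lines) of the 2 annotated transcripts of Mir155hg along the gene, with the distance from its annotated start in kilobases on the x axis. The orange bar marks the 65-base miR-155 hairpin inside the exon 2 that both transcripts share, and the grey box is the near end of Mrpl39, with 2330 bases between the genes.

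The labels were checked on the targeted gene. Yap1 stood at 71.19, 65.34 and 68.38 CPM (counts scaled to library size and by the TMM method of edgeR) in the control muscles and at 31.96, 23.89 and 39.47 CPM in the Yap-shRNA muscles, which did not overlap. By edgeR's quasi-likelihood test over 13113 genes the adjusted p for Yap1 was 0.323. Library totals ranged from 11987167 to 12710393 counts. The 10 markers of muscle fibres summed to between 156900 and 186000 CPM. In such bulk samples fewer cells of a type and less RNA per cell cannot be told apart.

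Mir155hg had more reads in Yap-shRNA muscle than in control muscle. It had 150, 223 and 232 counts in the control muscles and 885, 1356 and 495 counts in the Yap-shRNA muscles. On the scaled level this was 11.67, 18.66 and 19.04 CPM in control and 74.23, 104.2 and 39.47 CPM in Yap-shRNA muscle. The groups did not overlap, and the lowest Yap-shRNA muscle stood at 2.07 times the highest control muscle. The mean was 16.46 ± 4.15 CPM (SD, n = 3) in control and 72.62 ± 32.37 CPM (SD, n = 3) in Yap-shRNA muscle, a ratio of 4.41. The log2 fold change was 2.14 with a standard error of 0.32, and 5 genes of the 13113 tested had a higher one. All 3 Yap-shRNA muscles were above all 3 control muscles for 333 genes, or 2.54% of those tested, and all 3 were below for 358 genes, or 2.73%. Mir155hg is one of the 333 by the way it was chosen, and nothing is read from that.

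In their level of Mir155hg the Yap-shRNA muscles differed among themselves more than the control muscles did. The highest Yap-shRNA level of Mir155hg was 2.64 times the lowest, against 1.63 times in control muscle. The order of the Yap-shRNA muscles was the reverse of their order for Yap1. The Yap-shRNA 2 muscle had the highest level of Mir155hg and the lowest of Yap1, and the Yap-shRNA 3 muscle had the lowest level of Mir155hg and the highest of Yap1. This is an order of 3 muscles and was not tested.

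The levels of the nearest tested genes on either side of Mir155hg overlapped between the groups. Mrpl39, which encodes a mitochondrial ribosomal protein on the opposite strand, is the nearest tested gene to the right, with 2330 bases between them. It stood at 24.12, 26.02 and 25.53 CPM in control and at 25.04 to 26.66 CPM in Yap-shRNA muscle, with a log2 fold change of 0.04 (SE 0.09). The groups overlapped (adjusted p = 1.00, edgeR quasi-likelihood test). The nearest tested gene to the left, Chodl, which encodes a membrane protein of the C-type lectin family, is 5751433 bases away. It stood at 13.85, 7.278 and 4.515 CPM in control and at 7.465, 6.068 and 6.699 CPM in Yap-shRNA muscle, with a log2 fold change of -0.35 (SE 0.34, adjusted p = 1.00 by the same edgeR test). The control 1 muscle was the highest of the 6 and the control 3 muscle the lowest.

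Since miR-155 is abundant in immune cells, markers of these cells were examined in the same muscles. The 12 macrophage markers summed to 146.6, 96.37 and 66.33 CPM in control muscle and to 113.5, 127.6 and 153.7 CPM in Yap-shRNA muscle. These sums overlapped, and the control 1 muscle, with the highest sum in its group, had the lowest level of Mir155hg. Of the 12 markers, 11 had a log2 fold change above 0, with a median of 0.34, and none passed the test. Cd68, a lysosomal protein of macrophages, had the highest at 0.72, and Ptprc, the leukocyte antigen CD45, the lowest at -0.06. Cd163, a scavenger receptor of resident macrophages, was the only one of the 12 whose groups did not overlap (beside 2.54% of all genes in this direction), at 6.068, 2.928 and 5.336 CPM in control against 7.046, 6.606 and 7.336 CPM in Yap-shRNA muscle. Only 1 of 8 neutrophil markers (Csf3r, log2 fold change 0.12), 1 of 6 B cell markers (Ighm, log2 fold change -0.30) and 0 of 8 T cell markers were among the genes tested. The summed level of the neutrophil list was 0.4104 to 1.40 CPM in control and 0.7177 to 1.09 CPM in Yap-shRNA muscle, and that of Ighm was 46.76 to 92.76 CPM against 34.98 to 67.06 CPM. The part of these cells in the level of Mir155hg was not tested.

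**Figure D2:**
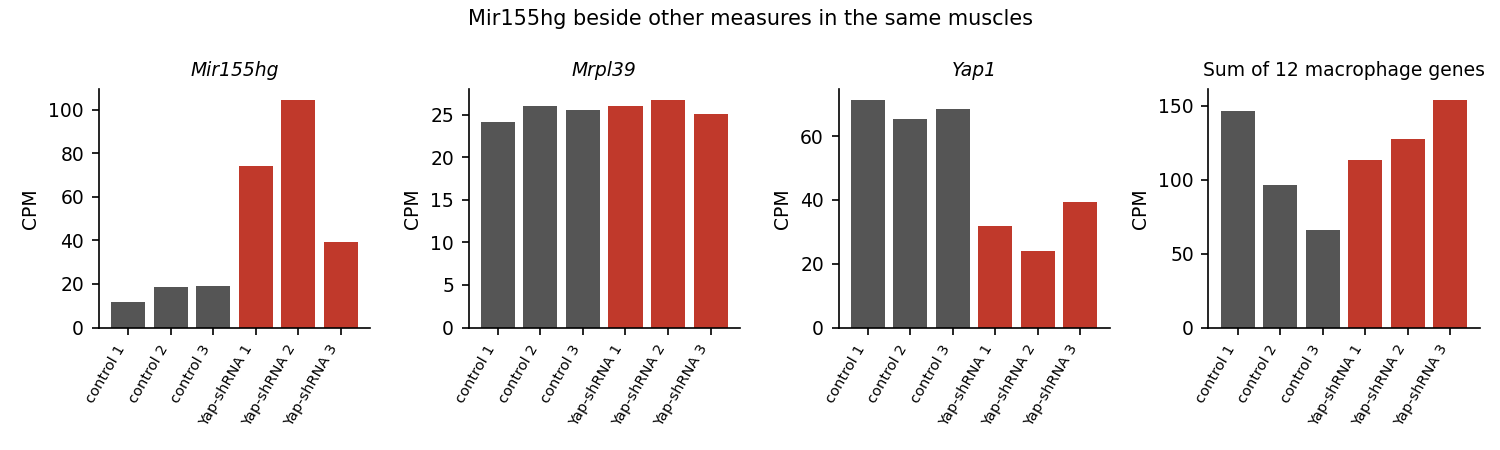
Level in CPM of Mir155hg, its neighbour Mrpl39, Yap1 and the sum of 12 macrophage markers in each of the 6 muscles, 1 bar per muscle, control in grey and Yap-shRNA in red. The bars of Mir155hg and Yap1 separate the groups in opposite directions, while those of Mrpl39 lie between 24.12 and 26.66 CPM, and those of the macrophage markers overlap.

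The muscle-resident lists moved little. The median log2 fold change was -0.06 over 10 fibre markers, -0.04 over 7 of 8 markers of satellite cells and regenerating fibres, 0.11 over 7 fibroblast markers and 0.01 over 7 endothelial markers, with no gene past the test. The fibroblast sum was uneven within both groups, at 2008, 1229 and 1042 CPM in control and 1238, 1231 and 2289 CPM in Yap-shRNA muscle. It was highest in the control 1 and Yap-shRNA 3 muscles, which had the lowest level of Mir155hg in their groups. The part of these cells was not tested.

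No difference between the groups was detected for the 9 genes that process small RNAs or carry them. No gene of the 13113 tested had an adjusted p under 0.05 by the quasi-likelihood test of edgeR (0% of those tested), and 211 (1.61%) had an unadjusted p under 0.05. None of the 9 was among these 211, and the lowest unadjusted p among the 9 was 0.499. DESeq2 called 5 of the 13113 genes (0.0381%), the likelihood ratio test of edgeR called 5 (0.0381%), and limma-voom called 0 (0%). None of the 9 genes was called by any of these tools. Their log2 fold changes ran from -0.05 to 0.09, with 6 above 0, 3 below and a median of 0.03, beside a median of -0.003 over all genes tested. The groups overlapped for all 9, and the quasi-likelihood test of edgeR gave an adjusted p of 1.00 for each. The 95% intervals of the fold ran from 0.697 to 1.45 at the widest, so smaller differences than these were not resolved with 3 muscles in each group.

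The Microprocessor genes come first. Drosha (ENSMUSG00000022191, plus strand, chr15:12824815-12935291) stood at 48.55, 44.42 and 47.36 CPM in control and at 48.15, 43.25 and 44.66 CPM in Yap-shRNA muscle. Its log2 fold change was -0.05 (SE 0.09) and the 95% interval of the fold was 0.839 to 1.12. Dgcr8 (ENSMUSG00000022718, minus strand, chr16:18253948-18289246) stood at 8.013, 4.267 and 7.224 CPM in control and at 6.626, 5.838 and 7.177 CPM in Yap-shRNA muscle. The control 2 muscle was the lowest of all 6, and the interval of the fold was the widest, from 0.697 to 1.45. Dgcr8 shares 825 exon bases with Trmt2a, a transfer RNA methyltransferase gene on the opposite strand, and no strand setting is stated, so reads there cannot be told apart. Trmt2a had a log2 fold change of -0.11 (SE 0.13).

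Xpo5, the export receptor of precursor microRNAs (ENSMUSG00000067150, plus strand, chr17:46202782-46243598), had a low control muscle as well. It stood at 12.37, 6.776 and 11.33 CPM in control and at 9.562, 10.60 and 9.888 CPM in Yap-shRNA muscle. The 3 Yap-shRNA muscles lay within the range of the control muscles, and the interval of the fold was 0.706 to 1.37. Dicer1 (ENSMUSG00000041415, minus strand, chr12:104687742-104751952) was even across the muscles, at 41.47, 39.82 and 42.77 CPM in control and 38.58, 42.94 and 40.83 CPM in Yap-shRNA muscle. Its log2 fold change was -0.02 (SE 0.09), with a fold interval of 0.855 to 1.14. Tarbp2, the double-stranded RNA-binding partner of Dicer (ENSMUSG00000023051, plus strand, chr15:102518192-102523676), stood at 9.958, 10.62 and 11.57 CPM in control. In Yap-shRNA muscle it stood at 9.394, 11.91 and 11.88 CPM, both below and above the control range. Its log2 fold change was 0.05 (SE 0.15) and the fold interval 0.817 to 1.31.

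The Argonaute genes all had a log2 fold change slightly above 0. Ago2, the Argonaute that cuts its targets (ENSMUSG00000036698, minus strand, chr15:73095844-73184935), stood at 71.65, 54.71 and 67.56 CPM in control and at 62.49, 69.98 and 70.81 CPM in Yap-shRNA muscle. All Yap-shRNA muscles lay within the control range, and the fold interval was 0.871 to 1.26. Ago2 shares 219 exon bases with Chrac1, a chromatin remodelling subunit gene on the opposite strand, which had a log2 fold change of -0.17 (SE 0.14). The other Argonaute genes lie next to each other on the minus strand of chromosome 4, Ago3 at chr4:126331704-126429556, Ago1 at chr4:126435012-126468583 and Ago4 at chr4:126489541-126533472. Ago1 (ENSMUSG00000041530) had the highest log2 fold change of the 9, 0.09 (SE 0.13). It stood at 12.60, 10.88 and 11.49 CPM in control and at 12.41, 12.37 and 12.44 CPM in Yap-shRNA muscle, and 1 control muscle was above all 3 Yap-shRNA muscles. Ago3 (ENSMUSG00000028842) stood at 9.803, 8.784 and 12.31 CPM in control and at 10.65, 10.83 and 10.45 CPM in Yap-shRNA muscle. Ago4 (ENSMUSG00000042500) stood at 10.58, 8.868 and 9.686 CPM in control and at 10.48, 9.832 and 9.41 CPM in Yap-shRNA muscle. For both the Yap-shRNA muscles lay within the range of the control muscles. Their log2 fold changes were 0.05 (SE 0.16) and 0.03 (SE 0.14). The Argonaute genes are paralogs, and reads that fit more than 1 of them could be lost or split by the counting.

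**Figure D3:**
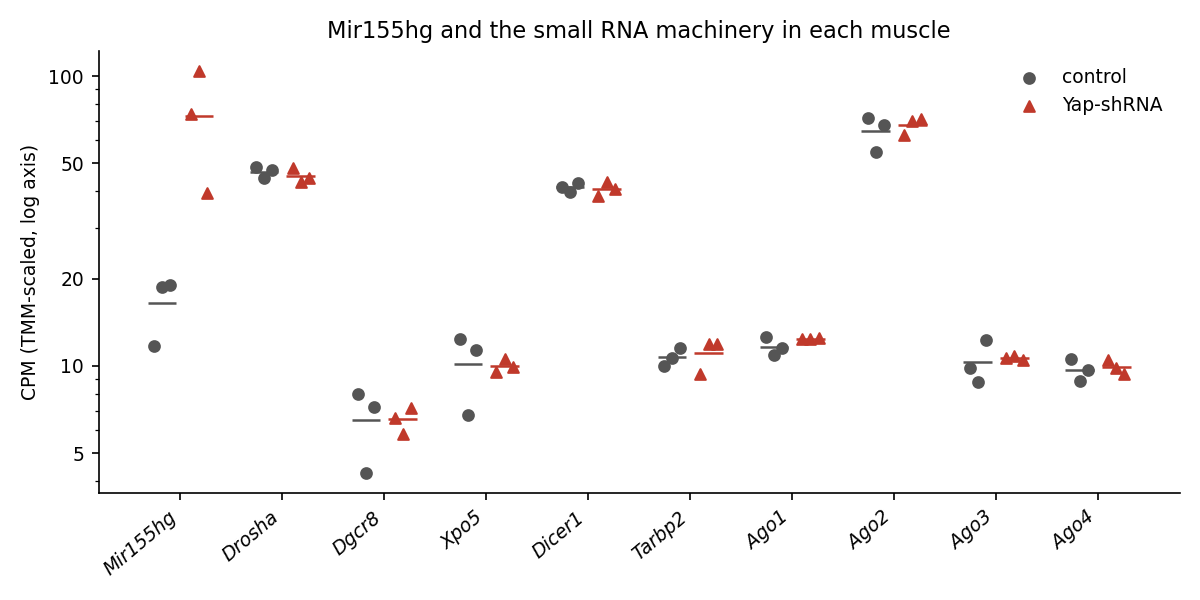
Level of Mir155hg and the 9 processing and Argonaute genes in CPM on a log axis, 1 point per muscle (grey circles control, red triangles Yap-shRNA), with a line at the mean of each group. Mir155hg, which was chosen by its counts, is the only one of the 10 genes whose groups do not overlap. Dgcr8 and Xpo5 each have 1 control muscle well below the other 5.

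**Figure D4:**
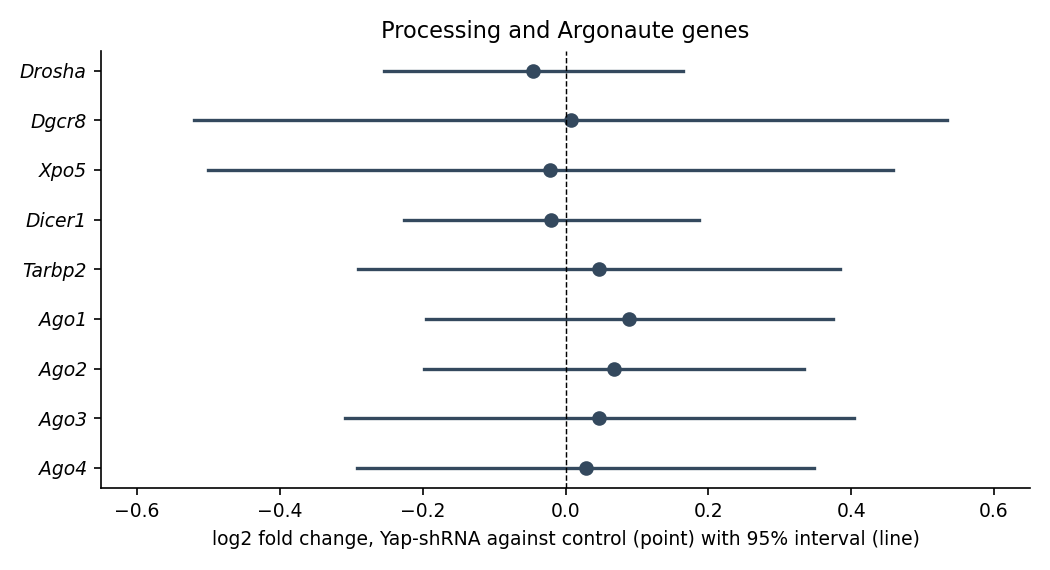
Log2 fold change of the 9 processing and Argonaute genes between Yap-shRNA and control muscle (points) with its 95% interval from the edgeR fit (lines), 3 muscles per group. Every interval includes 0, and those of Dgcr8 and Xpo5 are the widest.

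Per length of exon the 9 genes differed more from each other than between the groups. On RPKM (CPM per kilobase of annotated exon), Drosha was highest in control muscle at 7.88 ± 0.358 (SD, n = 3), followed by Ago2 at 4.61 ± 0.63. Dicer1 at 2.47 ± 0.0881 and Tarbp2 at 2.36 ± 0.179 did not differ beyond their spread. The same held for Xpo5 at 1.48 ± 0.434, Ago1 at 1.44 ± 0.108 and Ago4 at 1.40 ± 0.123. Dgcr8 at 0.845 ± 0.257 and Ago3 at 0.622 ± 0.11 were the lowest and did not differ beyond their spread. On the same scale Mir155hg, with 1433 exon bases, stood at 11.5 ± 2.9 in control and 50.7 ± 22.6 in Yap-shRNA muscle. Ago2 made up 57.03% ± 1.496 (SD, n = 3) of the summed Argonaute RPKM in control muscle and 57.27% ± 2.22 (SD, n = 3) in Yap-shRNA muscle.

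Most of the 9 genes were low in one control muscle. Control 2 was the lowest of the 3 control muscles for 8 of the 9 genes and the lowest of all 6 muscles for 6 of them. The summed level of the 9 genes was 225.0, 189.1 and 221.3 CPM in control and 208.4, 217.5 and 217.5 CPM in Yap-shRNA muscle, or 211.8 ± 19.72 against 214.5 ± 5.307 CPM (SD, n = 3). Genes with long exons were also low in that library. The median deviation of genes with 6727 or more exon bases from their mean, less that of genes with up to 2554, was -0.22 on the log2 scale in control 2, 0.21 in control 1 and between -0.03 and 0.02 in the other 4 muscles. The part of transcript length in the levels of the 9 genes was not tested. Without control 2, 2 of the 9 log2 fold changes were above 0 and 7 below, from -0.24 for Xpo5 to 0.04 for Ago1, with a median of -0.05, and every adjusted p was again 1.00 (edgeR, quasi-likelihood test).

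The partners of these genes were examined from lists written by role. None of the genes in the lists described from here on had an adjusted p under 0.05 by the quasi-likelihood test of edgeR, beside 0% of all genes, so their values are given as levels and differences only. Of 14 cofactors of the Microprocessor 11 were tested, with a median log2 fold change of 0.001. The highest was Hnrnpa1, an RNA-binding protein that assists the processing of some precursors, at 0.18 (SE 0.16), and the lowest was Srsf3, a splicing factor that assists the Drosha cut, at -0.22 (SE 0.11). The groups did not overlap for either gene, beside 2.54% of all genes for the higher direction and 2.73% for the lower. Srsf3 stood at 30.42, 28.28 and 31.77 CPM in control and at 27.51, 23.35 and 26.87 CPM in Yap-shRNA muscle. All 5 export and dicing partners were tested, with a median of 0.03, from Prkra, a partner of Dicer, at -0.04 to Adar, which edits double-stranded RNA, at 0.08. Ran, whose GTP-bound form loads Exportin-5, had a log2 fold change of 0.08 (SE 0.11).

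Downstream of dicing, 13 chaperones that help to load Argonaute had a median log2 fold change of 0.07, with 10 above 0 and 3 below. Hsp90aa1 was highest at 0.32 (SE 0.23) and Dnaja2, a co-chaperone, lowest at -0.06. Dnaja1, another co-chaperone, was the only one of the 13 whose groups did not overlap (beside 2.54% of all genes in this direction), at 10.74, 10.04 and 8.537 CPM in control and 10.90, 11.60 and 11.64 CPM in Yap-shRNA muscle. The 33 effectors that silence or deadenylate targets, among them the Tnrc6 scaffold proteins and the Ccr4-Not complex, were split into 16 above and 17 below 0 with a median of -0.002. They ran from Mov10, an RNA helicase, at -0.20 to Dcp1b, a decapping cofactor, at 0.19, and no gene of the 33 had groups that did not overlap. Of 15 genes for tailing, trimming and decay of small RNAs 14 were tested, with a median of 0.04. Papd4, a poly(A) polymerase that adds adenosine to microRNAs, was highest at 0.46 (SE 0.28) from 16 to 33 counts per muscle. Trim32, a ubiquitin ligase, was lowest at -0.24 (SE 0.13), and it was the only one of the 14 whose groups did not overlap (beside 2.73% of all genes in this direction).

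Sensors of double-stranded RNA were included because hairpins and vectors can engage them. Of 12 sensors 10 were tested, with a median log2 fold change of 0.16, which was -0.015 without the control 3 muscle and 0.40 without control 1. Zbp1, a sensor of nucleic acids in the Z form, was highest at 0.93 (SE 0.37) on 6 to 16 counts per muscle, and Tlr7, a receptor for single-stranded RNA, was lowest at -0.21 (SE 0.66). Oas2, an interferon-induced synthetase that activates RNase L, stood at 3.19, 2.342 and 2.216 CPM in control and at 3.942, 3.687 and 3.27 CPM in Yap-shRNA muscle. Zbp1 and Oas2 were the 2 of 10 sensors whose groups did not overlap, both higher in Yap-shRNA muscle beside 2.54% of all genes, with adjusted p = 1.00 for both by edgeR's quasi-likelihood test. Eif2ak2, the kinase PKR, had a log2 fold change of 0.21 (SE 0.21), and its groups overlapped. Oas2, Eif2ak2, Dnaja1 and Cd163 were picked after their values were seen.

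Other host genes of microRNAs differed in both directions. Their differences were smaller than that of Mir155hg, which was chosen by its counts in this comparison, so nothing is read from that. Of 43 such genes 42 were tested, with a median log2 fold change of -0.07, 18 above 0 and 24 below. The groups did not overlap for 5 of the 42, with Yap-shRNA higher for Srebf2 (0.39) and lower for H19 (-0.65), Meg3 (-0.73), Mirg (-0.95) and Dleu2 (-0.43), beside 2.54% and 2.73% of all genes in these directions. H19, an imprinted transcript that carries miR-675, stood at 888.7, 747.9 and 581.7 CPM in control and at 540.9, 395.4 and 480.8 CPM in Yap-shRNA muscle. Meg3 and Mirg belong to one imprinted cluster, and Mirg was low at 9 to 42 counts per muscle. Srebf2, a regulator of cholesterol synthesis that carries miR-33, stood at 20.15, 17.40 and 18.96 CPM in control and at 21.22, 24.58 and 28.07 CPM in Yap-shRNA muscle. The highest log2 fold change of the list was that of Slit3, host of miR-218, at 0.40 (SE 0.32), beside the 2.14 of Mir155hg. Among hosts named like it, Mir17hg had -0.11 (SE 0.32), Mir22hg -0.15 (SE 0.17), Mir99ahg -0.05 (SE 0.22) and Mir133a-1hg -0.39 (SE 0.17), with adjusted p = 1.00 for each by edgeR's quasi-likelihood test. The groups overlapped for all 4.

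Transcription factors that have been reported to act on the Mir155hg promoter were listed as well, and 13 of 16 were tested. Their median log2 fold change was 0.10, with 12 above 0 and 1 below. Fosl1, an AP-1 subunit, was highest at 1.01 (SE 0.36), on 9 to 36 counts per muscle, and Fosl2, another AP-1 subunit, was lowest at -0.16 (SE 0.17). The groups did not overlap for 2 of the 13, Junb and Rela, both higher in Yap-shRNA muscle beside 2.54% of all genes. Junb, an AP-1 subunit, stood at 13.07, 12.21 and 11.74 CPM in control and at 20.72, 16.82 and 24.64 CPM in Yap-shRNA muscle, a log2 fold change of 0.75 (SE 0.15, adjusted p = 1.00 by edgeR's quasi-likelihood test). Its order among the Yap-shRNA muscles was the reverse of that of Mir155hg. Rela, the p65 subunit of NF-κB, stood at 24.66, 25.93 and 23.97 CPM in control and at 30.45, 28.58 and 29.35 CPM in Yap-shRNA muscle. Both were picked after their values were seen.

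**Figure D5:**
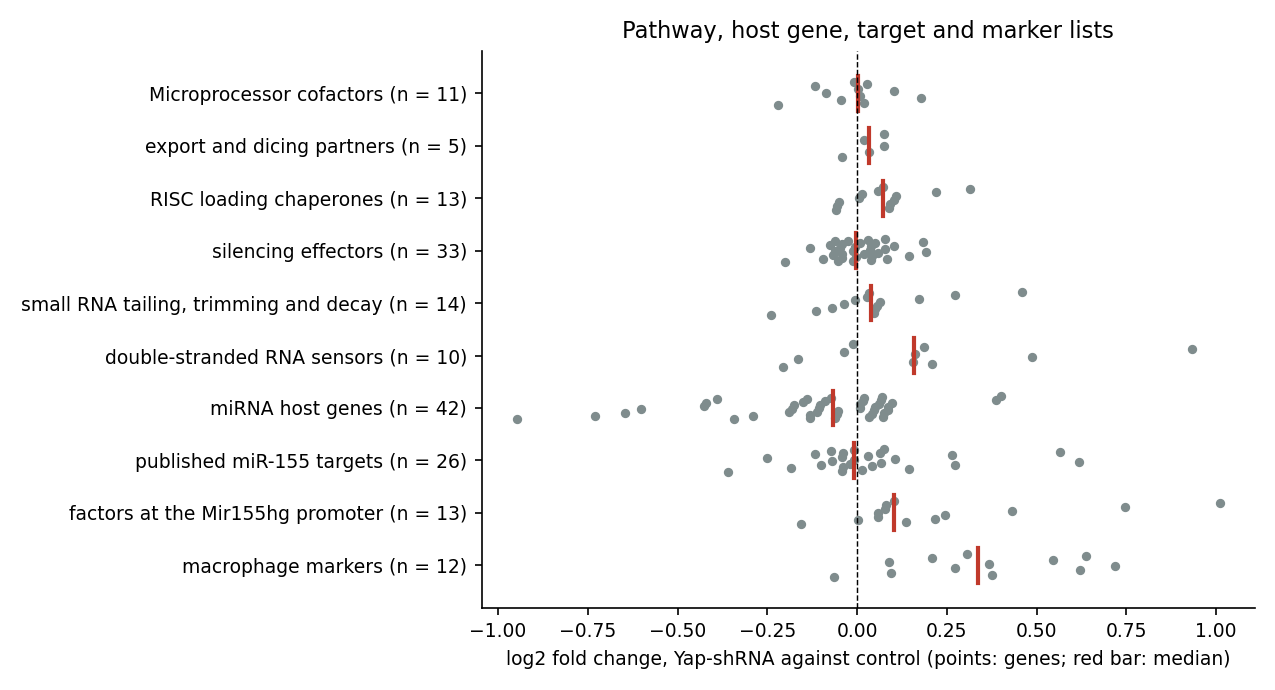
Log2 fold change between Yap-shRNA and control muscle (x axis) of each tested gene (grey points) in 9 lists related to small RNAs or Mir155hg and in the macrophage markers, with the median of each list as a red bar. The bars of the lists of small RNA proteins lie between -0.002 and 0.16, that of the host genes at -0.07 and that of the macrophage markers at 0.34.

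Whether messenger RNAs with a miR-155 site differed was asked next, using the 3′ untranslated regions (3′UTRs) annotated for 11841 of the genes tested. The seed of miR-155-5p pairs with AGCATTA, read on the sense strand only, and AGCATTAA is the longer match, with an adenine after it. The letters AGCATTA occurred in 1133 of these 3′UTRs (9.57%) and AGCATTAA in 410 (3.46%). Genes with the shorter match had a median log2 fold change of -0.008 and those without it -0.0008, a difference of -0.007. With the longer match the difference was also -0.007. For miR-155-3p, the arm that is usually discarded, 983 genes (8.30%) held a match and their median was 0.0001. Of the genes with the shorter 5p match 52.4% had a log2 fold change below 0, against 50.4% without. The 3′UTRs with a match were longer, with a median of 2791 bases against 1110. Within single muscles the difference in level between genes with and without a match was 0.07 in control 1, -0.07 in control 2 and between -0.006 and 0.006 in the other 4 (log2, relative to the mean of each gene), so 2 control muscles differed from each other far more than the groups did.

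For targets of miR-155 from the literature the median was higher with the match than without it, unlike that over all genes. This was not tested. Of 27 listed genes 26 were tested, and 16 of these held AGCATTA in their 3′UTR. The median log2 fold change was 0.05 for those 16, with 9 above 0 and 7 below, and -0.02 for the 10 without it. Sites of 6 well-known targets are shown so that the match can be seen in its place, each as 27 bases of the GRCm38 transcript sense strand with the 7-base match in capitals. These 6 were picked with their values already seen.
Socs1 chr16:10784202-10784228, minus strand: ctgccgctgtgccgcAGCATTAagtgg
Bach1 chr16:87732173-87732199, plus strand: ctctatgaacagtttAGCATTAagggt
Jarid2 chr13:44920078-44920104, plus strand: aactgattttgttttAGCATTAaactg
Tab2 chr10:7906687-7906713, minus strand: tgccataaggtagaaAGCATTAatgaa
Spi1 chr2:91115422-91115448, plus strand: gaccccgccggccatAGCATTAacccg
Mef2a chr7:67234141-67234167, minus strand: agcctagaaatatagAGCATTAacaaa

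None of these genes had groups that did not overlap. Bach1, a repressor of antioxidant genes with a further match in its 3′UTR, stood at 20.62, 9.872 and 14.45 CPM in control and at 16.94, 16.36 and 15.15 CPM in Yap-shRNA muscle. Socs1, an inhibitor of cytokine signalling, was at 1.40, 2.008 and 0.6567 CPM in control and at 1.007, 3.764 and 1.196 CPM in Yap-shRNA muscle, with its highest level in the muscle that was highest for Mir155hg. Jarid2, a cofactor of Polycomb repression with 2 matches, had a log2 fold change of -0.12 (SE 0.13), and Tab2, an adaptor of TAK1 signalling, had -0.04 (SE 0.09). Mef2a, a transcription factor of muscle genes, had 0.04 (SE 0.12). Spi1, the myeloid transcription factor PU.1, had the highest of the list at 0.62 (SE 0.33), on 16 to 60 counts per muscle. The groups did not overlap for Myo10, an unconventional myosin with the match, which was at 63.02, 55.05 and 59.59 CPM in control and at 52.17, 49.62 and 54.47 CPM in Yap-shRNA muscle, a log2 fold change of -0.19 (SE 0.10). Myo10 was picked after its values were seen, and Csf1r is on both this list and that of macrophage markers. Among the 9 processing and Argonaute genes the 3′UTR of Ago2 held 1 match to the miR-155-5p seed and that of Ago3 held 2.

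The genes whose levels were most like those of Mir155hg over the 6 muscles were Blcap, Fam185a, Cnnm3, Lrfn3 and Aen. Pearson's r of log2 CPM was 0.981, 0.981, 0.968, 0.957 and 0.955 in that order, the highest values among 13113 genes. These 6 points fall into the study's 2 groups, so any gene that differs between them scores high, and the values are descriptions only. Aen, an exonuclease gene induced by p53, was at 31.90, 34.97 and 35.95 CPM in control and at 46.64, 45.32 and 36.84 CPM in Yap-shRNA muscle. Blcap, which encodes a small membrane protein, was at 28.86, 30.87 and 30.29 CPM in control and at 36.82, 37.10 and 32.22 CPM in Yap-shRNA muscle. For both the Yap-shRNA 3 muscle was the lowest of its group and control 1 the lowest of all, as for Mir155hg. The differences were small beside that of Mir155hg, with log2 fold changes of 0.33 for Aen, 0.24 for Blcap, 0.21 for Lrfn3, 0.09 for Cnnm3 and 0.04 for Fam185a.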

How the data were processed

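Whole TA muscles were sequenced from polyadenylated RNA, 3 control and 3 Yap-shRNA, each a separate library. The authors deposited unnormalised counts of reads per gene. The submitters' processing notes name bcl2fastq 2.20.0.422 and GRCm38. The aligner, counter and strand setting for these libraries are not given in the sources used here. The lowest sum of any gene over the 6 libraries was 60 counts, so genes with few reads had been removed before deposit. All 6 columns were matched to samples by name. The labels say that control and treated muscles were paired in animals but do not say that a replicate number is an animal, so the main fit held no pairing term.

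Of 13226 genes, 113 were removed by filterByExpr of edgeR 4.0.16 (R 4.3.3). The counts, after TMM scaling, went into the quasi-likelihood test (two-sided, Benjamini-Hochberg adjustment over 13113 genes, threshold 0.05). The biological coefficient of variation was 15.1%. Chi-square per degree of freedom between libraries within a group was 7.62 to 21.4, above sampling noise. This value does not tell differences between muscles from those of library preparation. Each library counted as a replicate because the labels list it as a separate sample. The p-values measure the spread between libraries, which holds both. On simulated counts for 13226 genes the test recovered 162 of 196 changed genes with 7 false calls. The simulated counts were drawn with the dispersions fitted here, and the changes put in were far larger than those of the processing and Argonaute genes. On the deposited counts the same test called no gene, so the simulation gives no power for small differences. Levels on log2 CPM used a prior count of 2. DESeq2 1.42.0, limma 3.58.1 (voom), the likelihood ratio test, other scalings and count filters, a replicate block and leaving out each muscle were alternatives. Exons, positions and 3′UTRs came from GENCODE M21 (GRCm38), in which 13199 gene identifiers were found, and microRNA sequences from RefSeq (GRCm38.p6).

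The members and the gene lists were chosen with earlier results of these data known. The text names all members, Yap1, the genes with the highest and lowest log2 fold change of each list, the neighbours of Mir155hg and the 5 genes most correlated with it. Host genes, and genes of lists with 6 or fewer tested, could also be named, and other genes are marked as picked after their values were seen. A gene that this rule would name is left out of the text. No test was run over a list.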

Additional observations from a re-analysis of the deposited data

How the results depend on the processing

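The number of genes with an adjusted p under 0.05 was 0 by the quasi-likelihood test of edgeR, where 211 had an unadjusted p under 0.05, but 5 by DESeq2 and 5 by edgeR's likelihood ratio test. DESeq2 called Yap1, Rrad, Ccl2, Hspb7 and Mir155hg, and the likelihood ratio test called Yap1, Rrad, Ccl2, Actc1 and Mir155hg. Mir155hg had been chosen by the same counts, so nothing is read from its place there. Yap1 passed the threshold with both tools (DESeq2, log2 fold change -1.10, adjusted p = 5.05e-07, likelihood ratio test of edgeR, -1.10, adjusted p = 1.72e-06). Leaving out 1 muscle gave 0 to 1 called genes, with Rrad called without control 1 and Mir155hg without Yap-shRNA 3. Nothing is read from that call of Mir155hg either, for the same reason. The log2 fold change of Mir155hg ran from 1.79 to 2.44 when 1 muscle was left out, with the lowest value without Yap-shRNA 2.

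None of the 9 processing and Argonaute genes was called under any of 14 alternatives (126 values, lowest adjusted p 0.796 over DESeq2, edgeR and limma). In 109 of these the direction held and in 17 it turned, all at differences between -0.24 and 0.20. With 1 muscle left out the log2 fold change ran from -0.22 to 0.19 for Dgcr8, from -0.24 to 0.15 for Xpo5, from -0.0585 to 0.019 for Dicer1, from -0.00984 to 0.15 for Tarbp2, from -0.0389 to 0.15 for Ago2, from -0.0544 to 0.20 for Ago3 and from -0.0332 to 0.0946 for Ago4. Xpo5 was also above 0 with limma-voom (0.0206). The direction of these 7 genes is therefore not settled. Only Drosha and Ago1 kept theirs under all 14, which reuse the same muscles. The 95% intervals of the fold, 0.839 to 1.12 for Drosha and 0.873 to 1.3 for Ago1, include 1, so their direction is not settled either.

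With the replicate number as a block (replicate block), 0 genes passed the threshold with edgeR's quasi-likelihood test, the log2 fold change of Mir155hg was 2.07, and Xpo5 turned to 0.0138. Deviations of muscles with the same number correlated at -0.062, 0.23 and -0.27, so the numbers do not show a pairing. Of 223 list medians under the alternatives 215 moved by less than the spread between muscles and 8 by more, and no list held a called gene. The median of the double-stranded RNA sensors ran from -0.015 without control 3 to 0.404 without control 1, and that of the published targets from -0.0529 to 0.106 without the same muscles. The median of the macrophage markers ran from 0.04 without control 3 to 0.69 without control 1. With 3 muscles per group, low counts (Zbp1, Mirg, Socs1) limit precision.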
